A study of Mus musculus with 8 samples.

Results

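The unfolded protein and ATF4 stress response genes are 39 mouse genes that serve protein folding in the endoplasmic reticulum (ER) or the transcriptional program of the factor ATF4. They were taken as a list of symbols, and all 39 were found among the 24346 genes of the RPKM table (reads scaled to transcript length and to the size of the library). RNA had been sequenced from cultured bone marrow mesenchymal stem/stromal cells (MSCs) of C57BL/6 wild type (WT) mice and of *Dnmt3l* knockout (*Dnmt3l* KO) mice. DNMT3L is a cofactor of the DNA methyltransferases in germ cells and embryonic stem cells. The study asked how the transcriptome of these MSCs differs between the genotypes before and during bone cell differentiation. Within each genotype the cells came from 3 female mice of 8 to 16 weeks and were mixed, depleted of CD11b and CD45 positive blood cells, and used at passage 4. Undifferentiated cells grew in α-MEM with 20% fetal bovine serum. Differentiating cells had spent 3 days in osteogenic medium, which held 10% serum, 0.1 µM dexamethasone, 10 mM β-glycerophosphate and 50 µM ascorbic acid 2-phosphate. Serum, dexamethasone and the other additions changed together, so their effects cannot be told apart. Osteogenic medium was given once the cells were confluent, so cell density and time in culture may also have differed between the states. Each of the 4 groups had 2 libraries, and nothing states that the 2 came from separate cultures. The p-values below therefore measure only the spread between these libraries, pooled for each gene over the 4 groups.

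Proteins that enter the ER are folded by chaperones such as BiP, the product of *Hspa5*. When unfolded proteins accumulate, the sensors IRE1 (*Ern1*), ATF6 and PERK (*Eif2ak3*) start the unfolded protein response, which raises chaperones and the machinery that returns misfolded proteins to the cytosol for degradation. PERK also phosphorylates the translation factor eIF2, as do kinases that sense amino acid shortage or other stresses, and this favors the translation of ATF4. ATF4 then activates genes of amino acid synthesis, uptake and tRNA charging, together with regulators such as CHOP (*Ddit3*) and TRIB3. Osteoblasts secrete large amounts of collagen, and ATF4 and PERK are both known for roles in bone formation. ATF4 and XBP1 are set largely by translation and by unconventional splicing, respectively, neither of which a gene's RPKM value can show.

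Short sequence motifs known from these pathways were searched in the RefSeq promoter windows of mouse build GRCm38.p6, from 250 bases before to 50 bases after each gene's start, on both strands. As the motifs are known from these pathways, their presence in these genes is not an independent finding. Windows were found for 35 of the 39 genes. *Manf*, *Hyou1*, *Atf6* and *Slc7a5* had none. The ER stress response element (ERSE), which is CCAAT and CCACG with 9 bases between them, was in the windows of 8 of the 35 genes, against 0.119% of all 32851 windows. Of these 8 genes, 7 encode chaperones or folding factors, and the other is *Syvn1*. The sites of the 8 genes are shown because no other motif searched was in more of the genes. Capitals mark the whole element, which reads as its reverse complement in *Calr*, *Creld2* and the second site of *Hsp90b1*.
*Hspa5* (chr2:34772020-34772048, plus strand): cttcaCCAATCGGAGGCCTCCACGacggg
*Hsp90b1* (chr10:86705521-86705668, minus strand): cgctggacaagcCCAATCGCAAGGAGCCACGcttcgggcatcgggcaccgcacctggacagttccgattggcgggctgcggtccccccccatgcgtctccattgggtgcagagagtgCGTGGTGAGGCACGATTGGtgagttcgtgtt
*Calr* (chr8:84847063-84847105, minus strand): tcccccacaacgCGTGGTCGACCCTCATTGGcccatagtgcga
*Canx* (chr11:50325788-50325830, minus strand): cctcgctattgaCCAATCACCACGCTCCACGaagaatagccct
*Pdia6* (chr12:17266479-17266521, plus strand): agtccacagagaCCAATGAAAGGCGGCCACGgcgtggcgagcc
*Dnajc3* (chr14:118937815-118937857, plus strand): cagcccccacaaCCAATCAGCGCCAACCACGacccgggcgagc
*Creld2* (chr15:88819508-88819550, plus strand): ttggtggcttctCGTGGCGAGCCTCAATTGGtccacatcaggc
*Syvn1* (chr19:6046520-6046562, plus strand): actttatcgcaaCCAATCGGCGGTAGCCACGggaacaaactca

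The related ERSE-II, ATTGG and CCACG with 1 base between them, was in *Dnajb11* and *Herpud1* and in 0.0365% of all windows. The C/EBP-ATF response element (CARE), TGATGNAA, is bound by ATF4 with a C/EBP partner. It was in 6 of the 35 genes, *Herpud1*, *Trib3*, *Chac1*, *Asns* and *Slc7a11* among them, and in 3.97% of all windows. The unfolded protein response element TGACGTGG was in none of the 35 genes and in 0.676% of all windows, and the cyclic AMP response element TGACGTCA was in *Ppp1r15a* only and in 1.79% of all windows. The following stretches of 4 genes are shown because they hold a CARE before the gene's start, with the CARE and, in *Herpud1*, also ERSE-II in capitals. The CARE of *Trib3* and the ERSE-II of *Dnajb11* lie after the start and are not shown. *Herpud1*, *Chac1* and the second site of *Slc7a11* carry the CARE as its reverse complement. Positions count from the RefSeq start, and GENCODE M21 has longer transcripts of *Hspa5* and *Asns* whose untranslated exon sequence covers the stretch shown. A match is a description of the letters in the window, not a bound site.
*Herpud1* (chr8:94386305-94386399, plus strand): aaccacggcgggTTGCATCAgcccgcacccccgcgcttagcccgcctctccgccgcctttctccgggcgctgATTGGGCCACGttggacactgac
*Asns* (chr6:7693214-7693243, minus strand): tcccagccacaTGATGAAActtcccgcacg
*Chac1* (chr2:119351037-119351068, plus strand): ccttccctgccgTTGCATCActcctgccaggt
*Slc7a11* (chr3:50443641-50443691, minus strand): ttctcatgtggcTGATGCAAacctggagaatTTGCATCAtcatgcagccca

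The deposited table gives no read counts. Steps in the lowest values put the depth at 47.9 M to 66.9 M scaled reads per library. *Dnmt3l* was at 0.830 to 1.56 RPKM in the 4 WT libraries and was listed at 0 in all 4 KO libraries. The paper reports that the WT reads came only from the later exons of the gene, and it did not detect the canonical protein in MSCs. A few very abundant genes, *Actb* among them, were listed at 0 in whole groups, which may be failed estimates, but none of the 39 genes was at 0 in any library. Of 11 MSC markers, all were above 1 RPKM in some library, and their sum was 1582 to 3911 RPKM. The sum of 11 macrophage and leukocyte markers was 10.0 to 37.9 RPKM, and 5 of the 11 stayed below 1 RPKM everywhere. Among the 39 genes, the median difference between the 2 libraries of a group was 0.02 on the log2 scale in undifferentiated KO, 0.04 in undifferentiated WT, 0.08 in differentiating WT and 0.16 in differentiating KO. The differentiating KO libraries were thus the most spread, with replicate 2 the lower one in all of the genes but *Dnajb9*, *Ern1*, *Atf6*, *Eif2ak3* and *Syvn1*. The fit gives each gene 1 spread for all 4 groups. The SE therefore tends to be too wide for undifferentiated cells and too narrow for differentiating KO.

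The 39 genes ranged from 0.402 RPKM (*Slc7a11* in differentiating WT) to 868 RPKM (*Calr* in undifferentiated KO). Of the genes plotted below by library, *Atf4* is at chr15:80255184-80257541, *Ddit3* at chr10:127290774-127296288, *Trib3* at chr2:152337422-152344032, *Mthfd2* at chr6:83305691-83325908, *Hspa5* at chr2:34771970-34777547 and *Creld2* at chr15:88819646-88826683 of mm10 (GENCODE M21). Exons of *Pdia4*, *Manf* and *Aars* overlap those of *Mir704*, *Rbm15b* and *Exosc6* on the same strand, so reads there cannot be assigned to 1 gene with certainty. In undifferentiated WT the levels per transcript length were highest for 3 chaperone genes. *Calr*, the calcium-binding chaperone calreticulin, was at 772 ± 3.36 RPKM (SD, n = 2), *Hspa5* at 748 ± 16.9 and *Hsp90b1*, the ER form of HSP90, at 620.3 ± 13.2. They ranked 137, 142 and 163 among the 15342 genes tested. *Atf4* was the sixth highest of the 39 genes, at 266 ± 4.15 RPKM. The sensors were far lower, with *Ern1* at 4.13 ± 0.38, *Eif2ak3* at 10.2 ± 0.616 and *Atf6* at 11.7 ± 0.314 RPKM.

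**Figure D1:**
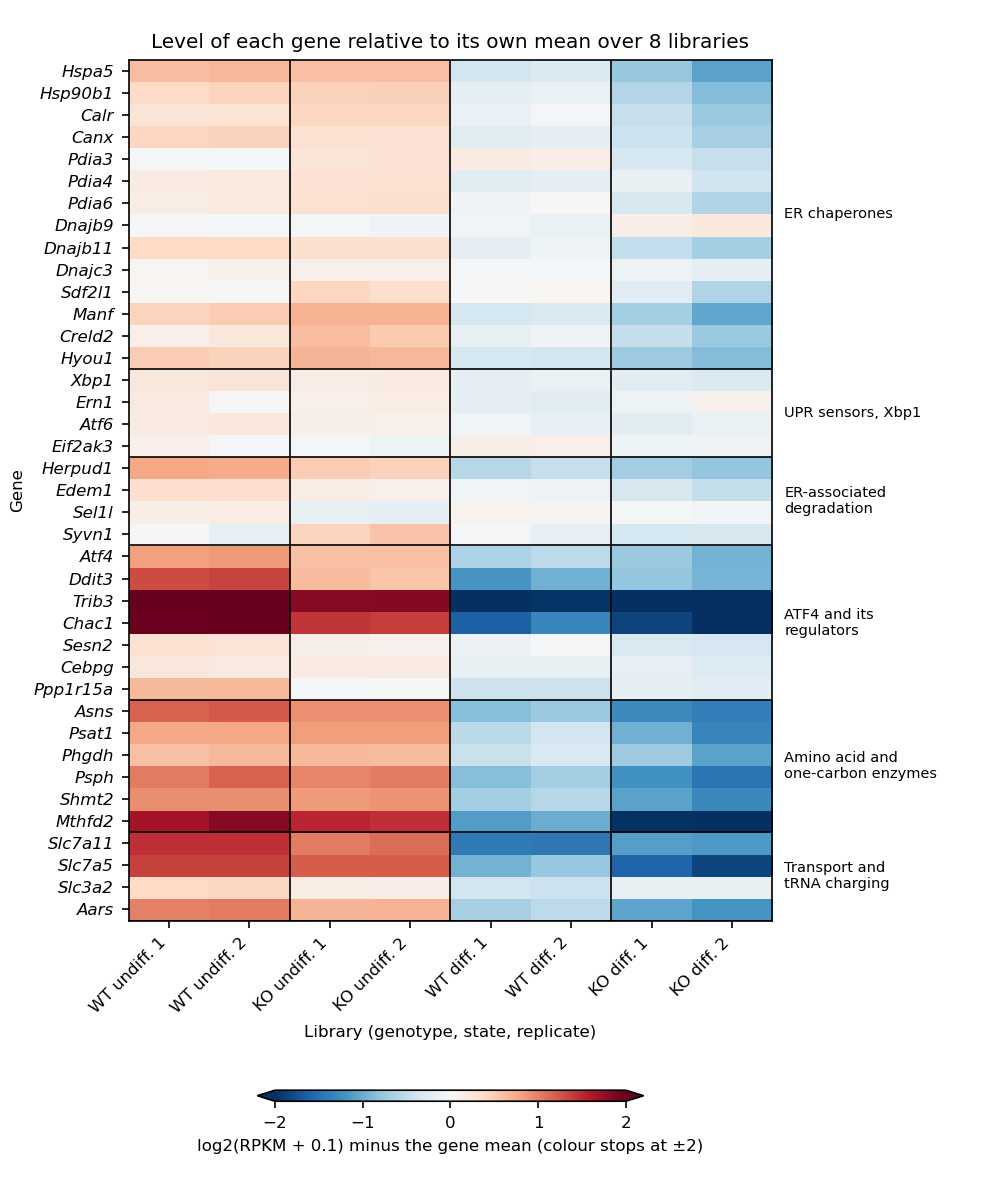
Levels of the 39 genes (vertical axis, by role) in the 8 libraries (horizontal axis) as log2(RPKM + 0.1) minus the gene's own mean, with colors that stop at 2 either way. The genes of ATF4, amino acid metabolism and transport stand above their mean in the 4 undifferentiated libraries and mostly below it in the 4 differentiating ones. The exception is *Ppp1r15a*, which is slightly below its mean in undifferentiated KO. *Trib3* and *Chac1* are the most extreme.

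The first question was what 3 days of osteogenic induction did to these genes. Most of them fell in both genotypes. In WT, 31 of the 39 genes fell (adjusted p under 0.05, limma with Benjamini-Hochberg adjustment over all 15342 genes) and 1 rose, while 32.8% of all genes tested fell and 31.6% rose. In KO, 35 fell and 2 rose, against 36.6% and 36.4% of all genes tested. The fall was more than 2-fold for 14 genes in WT, against 4.63% of all genes, and for 20 genes in KO, against 9.87%. The median log2 fold change of the 39 genes was -0.65 in WT and -1.03 in KO, and that of all genes tested was 0.00 in both. Without a single library in turn, the count of genes that passed was 28 to 35 in WT and 36 to 37 in KO. In these bulk samples, a smaller share of cells that use a gene and less RNA per cell cannot be told apart.

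All 7 genes grouped here as ATF4 regulators fell in each genotype. They are *Atf4*, *Ddit3*, *Trib3*, *Cebpg* and *Ppp1r15a*, with *Chac1* and *Sesn2* counted among them as further genes of the ATF4 program. Of all genes tested, 32.8% fell in WT and 36.6% in KO. *Atf4* itself was at 263 and 269 RPKM in undifferentiated WT, 95.9 and 103 in differentiating WT, 223 and 226 in undifferentiated KO, and 88.6 and 77.5 in differentiating KO. The 4 undifferentiated libraries stood well above the 4 differentiating ones, and the fall was 2.67-fold in WT (log2 fold change -1.42 ± 0.07 SE, limma adjusted p = 1.54e-05) and 2.7-fold in KO (-1.44 ± 0.07, adjusted p = 8.03e-06). *Trib3*, a pseudokinase that restrains ATF4 and CHOP, was at 36.6 and 36.5 RPKM in undifferentiated WT, 0.854 and 1.17 in differentiating WT, 17.4 and 17.5 in undifferentiated KO, and 0.752 and 0.742 in differentiating KO. No other of the 39 genes fell as far in either genotype, and it fell by 5.06 ± 0.12 on the log2 scale in WT (limma adjusted p = 1.46e-06) and fell by 4.37 ± 0.12 in KO (adjusted p = 1.21e-06). The mean RPKM was 36.2 times higher before induction in WT and 23.4 times higher in KO. 

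*Chac1*, which degrades glutathione and is a sensitive target of ATF4 and CHOP, was at 25.8 and 27.3 RPKM in undifferentiated WT, 2.05 and 2.59 in differentiating WT, 17.7 and 17.1 in undifferentiated KO, and 1.74 and 1.52 in differentiating KO. The fall was 11.5-fold in WT and 10.7-fold in KO. *Ddit3*, which encodes the pro-apoptotic factor CHOP, was at 114 and 118 RPKM in undifferentiated WT, 20.2 and 23.6 in differentiating WT, 71.2 and 67.8 in undifferentiated KO, and 27 and 24.1 in differentiating KO. The genotypes were further apart before induction than after it, with a fall of 5.29-fold in WT and 2.72-fold in KO. *Ppp1r15a* encodes GADD34, the subunit that directs the phosphatase of eIF2 and so ends the response. It was at 24.2 and 24.3 RPKM in undifferentiated WT, 11.4 and 11.4 in differentiating WT, 14.9 and 15.2 in undifferentiated KO, and 13.5 and 13.2 in differentiating KO. Here the fall was 2.13-fold in WT but only 1.13-fold in KO. *Sesn2*, an inhibitor of mTORC1 signaling, and *Cebpg*, a C/EBP partner of ATF4, had the smallest falls of the group in WT, by 0.35 and 0.35 on the log2 scale, and fell by 0.42 and 0.38 in KO.

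**Figure D2:**
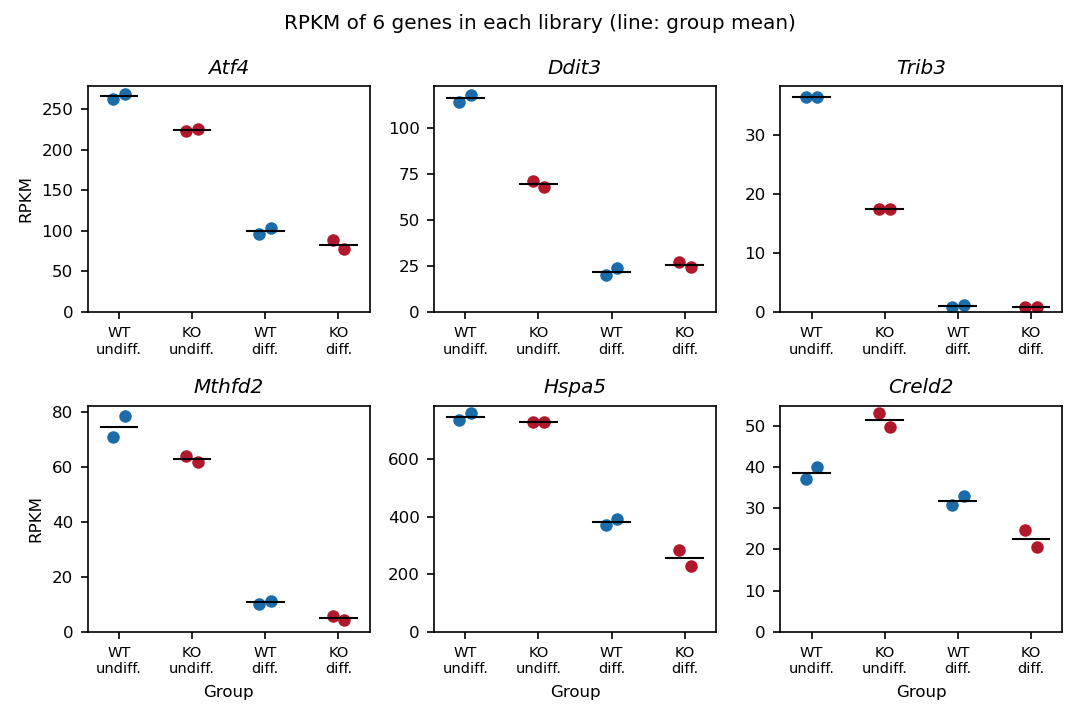
RPKM (vertical axes, from 0) of *Atf4*, *Ddit3*, *Trib3*, *Mthfd2*, *Hspa5* and *Creld2* in the 4 groups (horizontal axes), with a point for each library and a line at the group mean. *Trib3* drops from means of 36.5 (WT) and 17.4 RPKM (KO) to 1.01 and 0.747 RPKM, while *Creld2* is highest in undifferentiated KO and lowest in differentiating KO.

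All 6 enzymes of amino acid synthesis and folate-bound one-carbon metabolism fell in both genotypes, where 32.8% (WT) and 36.6% (KO) of all genes fell. *Asns*, asparagine synthetase, was at 152 and 155 RPKM in undifferentiated WT, 37 and 39.9 in differentiating WT, 125 and 126 in undifferentiated KO, and 27.5 and 25.7 in differentiating KO. It fell 3.99-fold in WT (log2 SE 0.05, limma adjusted p = 1.61e-06) and 4.72-fold in KO (log2 fold change -2.24 ± 0.05, adjusted p = 5.93e-07). *Mthfd2*, the mitochondrial folate enzyme downstream of serine breakdown, was at 70.7 and 78.5 RPKM in undifferentiated WT, 10.2 and 11.2 in differentiating WT, 64 and 61.7 in undifferentiated KO, and 5.59 and 4.16 in differentiating KO. Its fall was the largest of the enzymes, 6.98-fold in WT and 12.9-fold in KO. *Shmt2*, which splits serine in mitochondria, fell 2.95-fold in WT and 4.16-fold in KO. The 3 enzymes that make serine fell together. *Phgdh*, the first of them, was at 154 and 161 RPKM in undifferentiated WT, 74.8 and 83.1 in differentiating WT, 161 and 158 in undifferentiated KO, and 62.4 and 48.8 in differentiating KO. It fell 1.99-fold in WT and 2.87-fold in KO, *Psat1* 2.35-fold and 3.9-fold, and *Psph* 3.71-fold and 5.11-fold.

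The 4 genes of amino acid transport and charging fell too, against the same shares of all genes, to very different extents. *Slc7a5*, the exchanger for leucine and other large neutral amino acids, was at 28.3 and 28.1 RPKM in undifferentiated WT, 5.58 and 6.39 in differentiating WT, 25.2 and 25.2 in undifferentiated KO, and 3.52 and 2.98 in differentiating KO. It fell 4.71-fold in WT and 7.76-fold in KO. *Slc7a11*, the cystine/glutamate exchanger, had the lowest mean of the 39 genes in each group, at 3.61 and 3.61 RPKM in undifferentiated WT, 0.409 and 0.402 in differentiating WT, 2.69 and 2.83 in undifferentiated KO, and 0.532 and 0.507 in differentiating KO. It fell 8.9-fold in WT and 5.31-fold in KO. *Slc3a2* encodes the heavy chain that both exchangers need at the cell surface. Its values were 73.1 and 73.6 RPKM in undifferentiated WT, 42.7 and 41 in differentiating WT, 61.6 and 60.7 in undifferentiated KO, and 50 and 49.7 in differentiating KO, a smaller fall of 1.75-fold and 1.23-fold. *Aars*, which charges tRNA with alanine, fell 3.07-fold in WT and 3.53-fold in KO. 

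Of the 14 ER chaperones and folding factors, 9 fell and 1 rose in WT, against 32.8% and 31.6% of all genes tested. In KO 13 of the chaperones fell and 1 rose, against 36.6% and 36.4%. Their median log2 fold change was -0.37 in WT and -0.88 in KO, smaller falls than those of the ATF4 regulators (-1.42 and -1.44) and the enzymes (-1.72 and -2.14). *Hspa5* was at 736 and 760.4 RPKM in undifferentiated WT, 370.3 and 392 in differentiating WT, 731 and 732 in undifferentiated KO, and 285 and 229 in differentiating KO. The fall was 1.96-fold in WT (log2 fold change -0.97 ± 0.10, limma adjusted p = 3.18e-04) and 2.84-fold in KO (-1.52 ± 0.10, adjusted p = 2.82e-05). *Hsp90b1* was at 611 and 629.7 RPKM in undifferentiated WT, 406 and 421 in differentiating WT, 635 and 644 in undifferentiated KO, and 308 and 255 in differentiating KO. No library of a differentiating group reached any undifferentiated one, and the fall was 1.5-fold in WT and 2.27-fold in KO. *Calr*, which with calnexin folds glycoproteins, was at 770.1 and 775 RPKM in undifferentiated WT, 584 and 623 in differentiating WT, 867 and 868 in undifferentiated KO, and 469.5 and 383 in differentiating KO. It fell 1.28-fold in WT, which was lost without either undifferentiated WT library or differentiating WT replicate 1 (largest adjusted p = 0.101), and 2.03-fold in KO. *Canx*, calnexin itself, fell 1.57-fold and 1.79-fold.

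*Manf*, a secreted ER protein that binds BiP, was at 76.1 and 79.8 RPKM in undifferentiated WT, 43.9 and 45.7 in differentiating WT, 90.6 and 91.1 in undifferentiated KO, and 35.1 and 27.3 in differentiating KO. Its fall in KO, 2.91-fold, was the largest among the chaperones, and in WT it fell 1.74-fold. *Hyou1*, an exchange factor of BiP, fell 1.8-fold in WT and 2.78-fold in KO. *Creld2*, another ER stress-induced folding factor, was at 37 and 40.1 RPKM in undifferentiated WT, 30.7 and 33 in differentiating WT, 53.2 and 49.6 in undifferentiated KO, and 24.7 and 20.6 in differentiating KO. It fell 1.21-fold in WT and 2.27-fold in KO. The WT call was lost without any 1 of the libraries of undifferentiated WT, differentiating WT or undifferentiated KO. It was also lost under quantile normalization, without the filter on low values, without the variance trend and with a replicate block.

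The protein disulfide isomerases form and rearrange disulfide bonds in the ER. *Pdia3*, which works with calnexin and calreticulin, was at 147 and 147 RPKM in undifferentiated WT, 167 and 163 in differentiating WT, 175 and 182 in undifferentiated KO, and 119 and 108 in differentiating KO. It was the only one of the 39 genes that rose in WT (log2 fold change 0.16 ± 0.05, limma adjusted p = 0.032). That call was lost under median centring, with a replicate block and without any 1 of the 6 libraries other than those of differentiating KO. In KO *Pdia3* fell 1.58-fold. *Pdia4* fell 1.3-fold in WT and 1.48-fold in KO. *Pdia6* fell 1.7-fold in KO, and its log2 fold change of -0.20 in WT did not pass. *Dnajb11*, a co-chaperone of BiP, fell 1.44-fold in WT and 1.88-fold in KO. *Dnajb9*, a co-chaperone through which BiP keeps IRE1 inactive, was at 12.3 and 11.9 RPKM in undifferentiated WT, 11.8 and 11.2 in differentiating WT, 11.9 and 11.7 in undifferentiated KO, and 13.4 and 14.2 in differentiating KO. It rose 1.17-fold in KO (log2 fold change 0.22 ± 0.05, limma adjusted p = 0.00512) and changed by -0.07 in WT, which did not pass. *Sdf2l1* and *Dnajc3* (p58IPK, an inhibitor of PERK) fell 1.73-fold and 1.19-fold in KO, and their log2 fold changes of 0.01 and -0.09 in WT did not pass.

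Chaperones with and without an ERSE in their promoter windows overlapped in their response. The 7 with the element had log2 fold changes from -1.52 to -0.25 in KO, with a median of -1.03. The 5 without it, among those with a window, had changes from -0.91 to 0.22, with a median of -0.66. In WT the medians were -0.36 with it and -0.07 without it. *Dnajb11*, counted as without it, holds the related ERSE-II. Among the ATF4 regulators, enzymes and transport genes with a window, the 5 with a CARE had log2 fold changes from -5.06 to -1.62 in WT (median -2.88). The other 11 spanned -2.79 to -0.35 (median -1.23). In KO the ranges were -4.37 to -1.82 (median -2.24) with a CARE and -3.68 to -0.17 (median -1.44) without it. These are descriptions of small sets that were not tested.

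The changes of the sensors and *Xbp1* were small, between -0.40 and 0.07 on the log2 scale. *Xbp1*, the transcription factor whose RNA is spliced by IRE1, was at 86.4 and 88.2 RPKM in undifferentiated WT, 65.6 and 67.5 in differentiating WT, 82.2 and 82.9 in undifferentiated KO, and 63.9 and 60.8 in differentiating KO. It fell by 0.39 ± 0.03 on the log2 scale in WT (limma adjusted p = 1.74e-04) and by 0.40 ± 0.03 in KO (adjusted p = 8.91e-05). *Atf6* fell by 0.30 and 0.28. *Ern1* fell by 0.29 in WT, and its change of -0.13 in KO did not pass. The WT call was lost without undifferentiated WT replicate 1, either differentiating WT library or either undifferentiated KO library. It was also lost with a replicate block and with only the WT libraries fitted. *Eif2ak3* had log2 fold changes of 0.07 in WT and -0.01 in KO, neither of which passed.

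The 4 genes of ER-associated degradation split. *Herpud1*, which assembles the retrotranslocation complex, was at 80.2 and 78.7 RPKM in undifferentiated WT, 31.7 and 34.1 in differentiating WT, 66.4 and 64.5 in undifferentiated KO, and 29 and 27.5 in differentiating KO. It fell 2.41-fold in WT and 2.32-fold in KO, and it is the one gene of this group with both an ERSE-II and a CARE in its window. *Edem1*, which recognizes trimmed glycans on misfolded proteins, fell 1.33-fold and 1.44-fold. The ubiquitin ligase HRD1 (*Syvn1*) was at 3.97 and 3.54 RPKM in undifferentiated WT, 3.89 and 3.53 in differentiating WT, 5.39 and 5.95 in undifferentiated KO, and 3.06 and 3.15 in differentiating KO. It fell 1.83-fold in KO, with a log2 fold change of -0.02 in WT that did not pass. Its adaptor *Sel1l* rose by 0.12 in KO, a call lost without undifferentiated KO replicate 2 and under median centring (largest adjusted p = 0.198), and changed by -0.08 in WT, which did not pass.

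**Figure D3:**
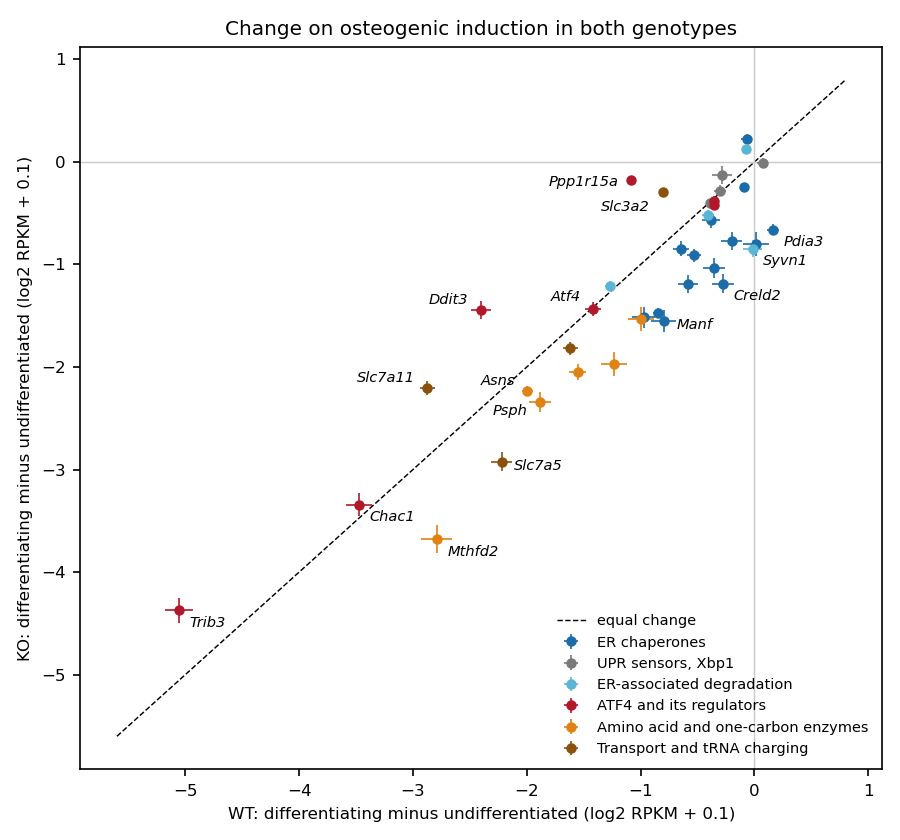
Log2 fold change on induction in WT (horizontal axis) and KO (vertical axis) for the 39 genes, both on log2(RPKM + 0.1), with bars of 1 SE and a dashed line of equal change. The points run from *Trib3* at -5.06 and -4.37 to values near 0, with the chaperones and enzymes mostly below the dashed line and *Ddit3*, *Ppp1r15a* and *Slc7a11* above it.

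Across the 39 genes the changes in WT and KO, which share no library, had a Pearson r of 0.895 and a Spearman rho of 0.809. Genes are not independent replicates, so this is a description. The direction was the same for 34 genes, and the change was more negative in KO for 28, among them 13 of the 14 chaperones and all 6 enzymes. These values were not computed over all genes tested, so they cannot show whether the likeness is particular to the 39 genes.

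The second question was how the genotypes differed before induction. In undifferentiated cells *Atf4* and most other ATF4 regulators were lower in KO, together with most of the listed genes of transport and of ER-associated degradation. Many of these calls depended on the fit. Of the 39 genes, 13 were lower and 4 higher in KO, against 17.5% and 14.7% of all genes tested, and the median difference was -0.08. Of the 7 ATF4 regulators, 6 were lower, and so were 3 of the 4 genes of transport and charging, 3 of the 4 of ER-associated degradation and 1 of the 6 enzymes. The 4 higher genes were *Syvn1* and 3 of the 14 chaperones, where 14.7% of all genes were higher. *Trib3* had the largest difference, at 36.5 ± 0.0579 RPKM in WT and 17.4 ± 0.0395 in KO (log2 difference -1.06 ± 0.12, limma adjusted p = 0.00261). It was the only one of the 39 genes past the 2-fold limit, against 1.09% of all genes. *Ddit3* was at 116 ± 2.59 RPKM in WT and 69.5 ± 2.41 in KO (-0.74 ± 0.09, adjusted p = 0.00279). *Ppp1r15a* was at 24.3 ± 0.0638 and 15.1 ± 0.225 RPKM (-0.68 ± 0.03, limma adjusted p = 1.62e-04).

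*Chac1* was 1.52-fold lower in undifferentiated KO, *Slc7a11* 1.31-fold, *Aars* 1.26-fold, *Asns* 1.22-fold, *Slc3a2* 1.2-fold, *Atf4* 1.19-fold and *Sesn2* 1.13-fold. *Atf4* passed narrowly (log2 difference -0.25 ± 0.07, limma adjusted p = 0.0407). Its call was lost without any 1 library of the 3 groups other than differentiating KO. It was also lost without the filter on low values, without the variance trend and with a replicate block. In ER-associated degradation, *Sel1l* (-0.30), *Herpud1* (-0.28) and *Edem1* (-0.22) were lower in KO on the log2 scale, while *Syvn1* was 1.51-fold higher (0.58 ± 0.08, limma adjusted p = 0.00491). The other genes higher in KO were the chaperones *Creld2* (1.34-fold), *Pdia3* (1.21-fold) and *Hyou1* (1.14-fold), none of which passed under every alternative. *Hspa5* and *Hsp90b1* had log2 differences of -0.03 ± 0.10 and 0.04 ± 0.09, which did not pass. The count of 17 fell to 7 to 9 without any 1 of the 4 undifferentiated libraries, and the genes that passed under every alternative were *Ddit3*, *Ppp1r15a*, *Sel1l*, *Slc3a2*, *Syvn1* and *Trib3*. After quantile normalization the split was 7 higher and 13 lower.

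**Figure D4:**
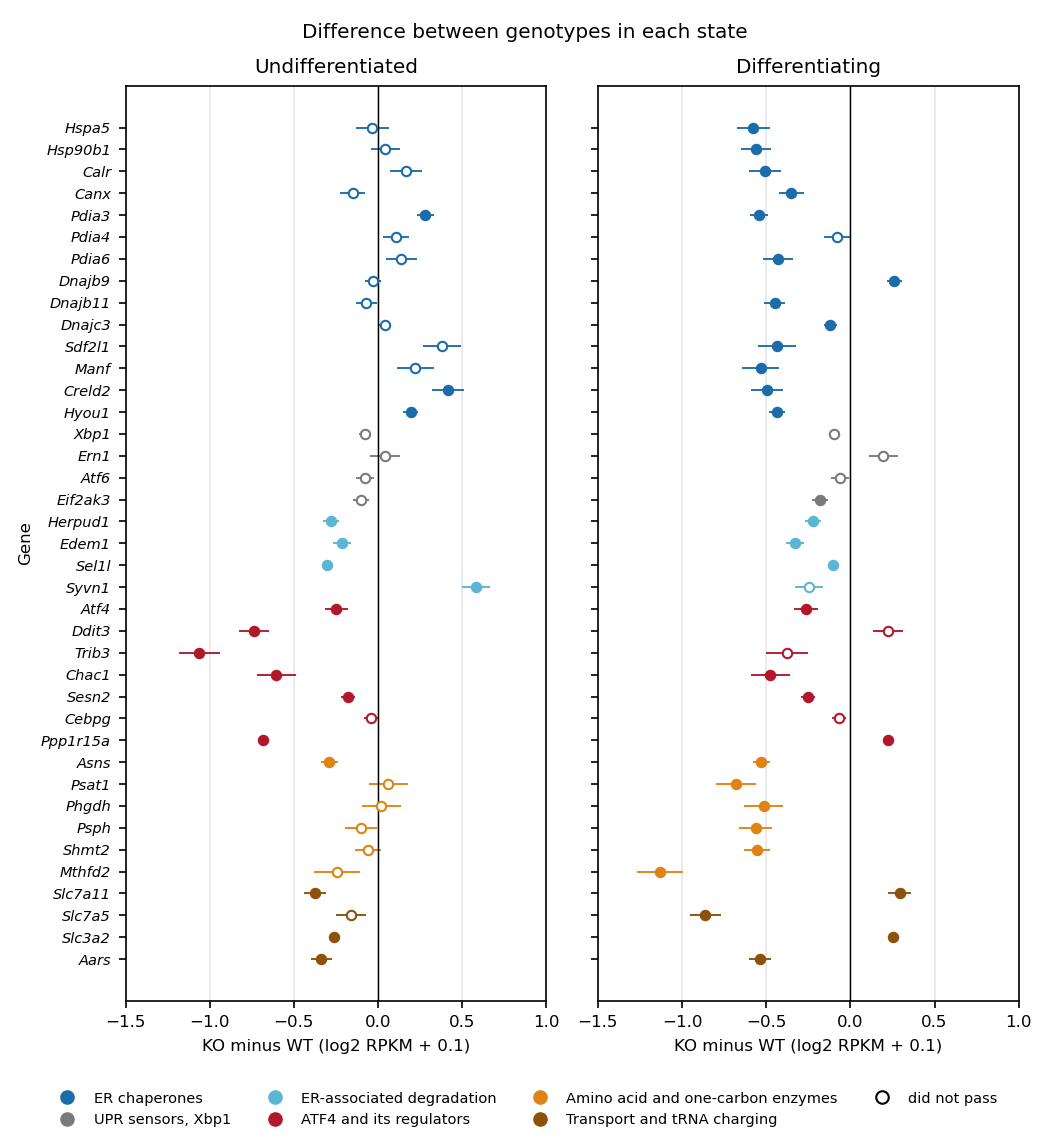
Difference between KO and WT on log2(RPKM + 0.1) (horizontal axes) for the 39 genes (vertical axis) in undifferentiated (left) and differentiating cells (right), with bars of 1 SE and open circles for genes that did not pass. *Trib3*, *Ddit3*, *Ppp1r15a* and *Chac1* lie below 0 on the left, and nearly all chaperones and all 6 enzymes lie below 0 on the right.

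The third question was how the genotypes differed after induction. In differentiating cells most chaperones and all of the amino acid enzymes were lower in KO, though many of these calls depended on the fit. Of the 39 genes, 27 were lower and 4 higher, against 22.9% and 17.8% of all genes tested, with a median difference of -0.38. Of the 14 chaperones, 12 were lower and 1 was higher, and all 6 enzymes were lower. When only the differentiating libraries were fitted, 3 of the 12 chaperones and 3 of the 6 enzymes passed. *Mthfd2* differed most, at 10.7 ± 0.677 RPKM in WT and 4.88 ± 1.01 in KO (log2 difference -1.13 ± 0.14, limma adjusted p = 0.00238), and was the only one past the 2-fold limit, against 1.95% of all genes. *Slc7a5* was at 5.99 ± 0.571 and 3.25 ± 0.381 RPKM, a 1.84-fold difference. The other 5 enzymes were 1.42-fold (*Phgdh*) to 1.59-fold (*Psat1*) lower, and *Aars* 1.45-fold.

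*Hspa5* was at 381 ± 15.5 RPKM in differentiating WT and 257 ± 39.3 in differentiating KO (-0.58 ± 0.10, limma adjusted p = 0.00718). *Hsp90b1* was 1.47-fold lower in KO, *Pdia3* 1.46-fold, *Manf* 1.44-fold, *Calr* 1.42-fold, *Creld2* 1.41-fold and *Hyou1* 1.35-fold. *Dnajb9* was the exception among the chaperones, 1.2-fold higher in KO, and *Pdia4*, at -0.08 ± 0.08, did not pass. The other genes higher in KO were *Ppp1r15a* (1.17-fold), *Slc3a2* (1.19-fold) and *Slc7a11* (1.28-fold), all of which had been lower in KO before induction. *Atf4* was 1.2-fold lower in KO after induction (limma adjusted p = 0.0273). That call was lost without any 1 library except differentiating KO replicate 1. It was also lost with a replicate block and with only the differentiating libraries fitted. *Ddit3* (0.22 ± 0.09) and *Trib3* (-0.38 ± 0.12) did not pass. The count of 31 fell to 14 without differentiating WT replicate 2 and to 12 when only the 4 differentiating libraries were fitted. *Hspa5*, *Calr*, *Manf* and *Creld2* were among the calls lost both ways, whereas 12 genes passed under every alternative. These were *Mthfd2*, *Slc7a5*, *Asns*, *Shmt2*, *Aars*, *Pdia3*, *Hyou1*, *Dnajb11*, *Edem1* and *Sesn2*, lower in KO, and *Ppp1r15a* and *Slc3a2*, higher in KO.

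The change of the genotype difference with induction was tested directly as the interaction of genotype and induction. It passed for 25 genes, with 18 lower and 7 higher in KO after than before induction relative to WT, against 20% and 19.4% of all genes tested. With the 2-fold limit the count was 0 of the 39 genes by limma (26 had an unadjusted p under 0.05), against 2.76% of all genes higher and 3.42% lower. The 18 lower genes held 10 chaperones, all 6 enzymes, *Syvn1* and *Slc7a5*. *Creld2* had the most negative term (-0.91 ± 0.14 on the log2 scale, limma adjusted p = 0.00423). *Pdia3* (-0.82 ± 0.07) fell in KO, while its small rise in WT was a call lost under several alternatives. The 7 positive terms were those of *Ddit3*, *Ppp1r15a*, *Trib3*, *Slc7a11*, *Slc3a2*, *Dnajb9* and *Sel1l*, of which *Ddit3* was largest (0.96 ± 0.12, limma adjusted p = 0.00281). *Atf4* itself had a term of -0.02 ± 0.10, which did not pass. Without differentiating WT replicate 2 the count was 11, without undifferentiated WT replicate 1 it was 14, and without undifferentiated KO replicates 1 and 2 it was 16 and 13. *Creld2*, *Ddit3*, *Hyou1*, *Pdia3*, *Ppp1r15a*, *Sdf2l1*, *Slc3a2*, *Slc7a11*, *Slc7a5* and *Syvn1* passed under every alternative.

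Other genes of the same pathways were described by the same fit. Of all genes tested, 32.8% fell and 31.6% rose in WT, and 36.6% fell and 36.4% rose in KO. Lower in KO were 17.5% of all genes in undifferentiated and 22.9% in differentiating cells, and 14.7% and 17.8% were higher. Of 36 further ATF4 and integrated stress response targets, 31 fell and 5 rose in WT on induction (median log2 fold change -1.12) and 28 fell and 5 rose in KO (-1.13). The largest changes in WT were those of *Slc7a3*, a transporter of basic amino acids (-2.69), *Fgf21*, a stress-induced hormone (-2.63), and *Aldh1l2*, a mitochondrial folate enzyme (-2.61). In undifferentiated cells 17 of the 36 were lower in KO and 1 was higher, led by *Fgf21* (-1.39), the stress-induced transcription factor *Atf3* (-1.14) and *Vldlr* (-0.97). In differentiating cells 19 were lower and 8 higher. Among 8 further aminoacyl-tRNA synthetases, 6 fell in WT and 7 in KO. Of 12 genes of the eIF2 kinases, eIF2, its exchange factor and its phosphatase, 9 fell and 2 rose in WT and 10 fell and 2 rose in KO.

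Of 21 further genes of ER folding and export, 15 fell and 1 rose in WT and 19 fell and 1 rose in KO, and in differentiating cells 18 were lower in KO. When undifferentiated, 4 of the 21 were lower and 1 was higher in KO, against 17.5% and 14.7% of all genes tested. *Ero1l*, the oxidase that drives disulfide formation, had the largest fall in WT (-1.47), and *Kdelr3*, a receptor that returns chaperones to the ER, had the largest in KO (-1.38). The 15 further genes of ER-associated degradation were divided, with 6 lower and 6 higher after induction in WT and 6 lower and 5 higher in KO. Between the genotypes in undifferentiated cells, 4 of the 15 were lower and 1 was higher in KO, against 17.5% and 14.7% of all genes tested. *Edem2*, which trims mannose from glycoproteins, rose from a mean of 12.2 to 27.0 RPKM in WT and from 13.3 to 38.0 RPKM in KO. Of 10 further sensors and processing proteases, 3 fell and 3 rose in WT and 6 fell and 2 rose in KO. *Crebrf*, a regulator of CREB3, rose in both (1.60 and 2.78).

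Stress responses outside the ER were counted in the same way, against the same shares of all genes. Of 14 cytosolic heat shock genes, 8 fell and 5 rose in WT and 9 fell and 4 rose in KO. Mitochondrial chaperones and proteases fell for 6 of 8 in WT and 7 of 8 in KO, with *Hspa9* the most changed (-1.55 and -1.61). Of 10 NRF2 targets of the oxidative stress response, 7 fell and 2 rose in each genotype, led by *Nqo1* (-2.19 and -2.95), and 4 were higher in undifferentiated KO. Among 15 genes of collagen folding and secretion, 8 fell and 5 rose in WT and 10 fell and 4 rose in KO, and 9 were lower in differentiating KO.

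Markers of other processes moved with these comparisons, and their part in the results was not tested. The shares of all genes given above apply to the marker counts too. All 10 genes known to be induced by dexamethasone rose in both genotypes, *Zbtb16* by 7.36 and 7.61 on the log2 scale. The 15 proliferation genes fell in KO (15 of 15, median -2.81) and mostly in WT (14 of 15, median -0.81). In differentiating cells all 15 were lower in KO (median -1.44), where the chaperones and enzymes were also lower, and in undifferentiated cells 7 were higher. Their summed level was 293 and 314 RPKM in differentiating WT and 169 and 133 in differentiating KO. Macrophage and leukocyte markers were lower in KO in both states (5 of 10 tested lower and 2 higher when undifferentiated, 8 lower and 1 higher when differentiating). Their sums were 21.1 and 21.7 RPKM in undifferentiated WT against 11 and 10.0 in undifferentiated KO, and 33.3 and 37.9 against 14.1 and 15.3 in differentiating cells. Of 8 adipogenic markers 7 rose in WT and 8 in KO, and of 10 osteoblast markers 3 rose and 2 fell in WT and 2 rose and 5 fell in KO. Of 9 plasma and B cell markers, 8 were below 1 RPKM in every library, and of 8 endothelial markers, 6 were. The plasma and B cell markers summed to 88.7 to 163 RPKM, mostly from the remaining marker.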

How the data were processed

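Total RNA was depleted of ribosomal RNA and made into strand-specific libraries, 2 for each of 4 groups (WT or *Dnmt3l* KO, undifferentiated or differentiating). According to the submitters' processing notes and the study's methods, reads were aligned to mm10 with TopHat2 2.1.0 and the iGenomes annotation, and expression was computed with Cufflinks 2.2.1 and Cuffdiff. The authors deposited RPKM values, which are scaled to transcript length and library size, so that levels are relative within a library and a few abundant RNAs can shift the rest. Every column matched 1 library by name, and 0 columns were left without a sample. Whole-read steps were found for 66.2 to 70.1% of the lowest values of a library (within 0.05 of a whole read, after 200 nt were taken from the gene length), too few to recover counts for a count test.

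Values were analysed as log2(RPKM + 0.1) with limma 3.58.1 in R 4.3.3 (1 mean per group, all 8 libraries in 1 fit, variance trend, 4 residual and 1.98 prior degrees of freedom, two-sided). Genes whose mean over the 8 libraries was below 0.1 RPKM were left out, which left 15342, all 39 listed genes among them, and p-values were adjusted over these by the Benjamini-Hochberg method. A gene passed at an adjusted p under 0.05, and the 2-fold limit required an absolute log2 fold change above 1 as well. Fold changes on this scale understate those of low genes, and folds in the text are ratios of mean RPKM. Alternatives were other pseudocounts, filters, scalings and variance models, a replicate block, a fit of only the groups compared and the omission of each library.

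All 39 genes were named. Of each other list, up to 3 genes with the largest change among those that passed were named per comparison. The 39 genes and the lists were chosen with earlier results of these data known. Gene positions come from GENCODE M21 and promoter windows from RefSeq (GRCm38.p6). Ends of the proteins were not analysed here, and 1 promoter stretch is not reported here. Descriptive values were computed in Python 3.11.15 with pandas 2.3.3.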

Additional observations from a re-analysis of the deposited data

Results flagged for a closer look

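For 25 of the 39 genes the interaction term of the limma fit passed (Benjamini-Hochberg adjusted p under 0.05 over 15342 genes). It was negative for 18 of them and positive for 7, against 20% and 19.4% of all genes tested. Many of the 25 calls were lost under some alternative, those of all the enzymes among them. Each value is the KO minus WT difference after induction minus that before it, on the log2 scale. Among the chaperones it was -0.91 for *Creld2*, -0.82 for *Pdia3*, -0.81 for *Sdf2l1*, -0.76 for *Manf*, -0.68 for *Calr*, -0.63 for *Hyou1*, -0.61 for *Hsp90b1*, -0.57 for *Pdia6*, -0.54 for *Hspa5*, -0.38 for *Dnajb11* and 0.29 for *Dnajb9*. For ER-associated degradation it was -0.83 for *Syvn1* and 0.20 for *Sel1l*.

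The ATF4 regulators that met the same test had positive values, 0.96 for *Ddit3*, 0.91 for *Ppp1r15a* and 0.69 for *Trib3*. All 6 enzymes had negative ones, -0.89 for *Mthfd2*, -0.74 for *Psat1*, -0.53 for *Phgdh*, -0.49 for *Shmt2*, -0.46 for *Psph* and -0.24 for *Asns*. The transport genes were divided, with -0.70 for *Slc7a5*, 0.67 for *Slc7a11* and 0.51 for *Slc3a2*.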

How the results depend on the processing

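No change of direction occurred among the 142 calls of single genes in any alternative. With the 2-fold limit the counts were 14 genes for induction in WT, 20 for induction in KO, 1 for the genotypes before induction, 1 after it and 0 for the interaction (limma; 26 genes had an unadjusted interaction p under 0.05, and 0 of them were past 2-fold, while 2.76% of all genes tested passed that limit higher and 3.42% lower). With only the libraries compared, 12 genes passed between the genotypes after induction, against 31. The omission of 1 library gave 28 to 35 genes for induction in WT, 36 to 37 in KO, 7 to 23 for the genotypes before induction, 14 to 33 after it and 11 to 28 for the interaction. Omission of undifferentiated WT replicate 1 or 2 left 9 or 7 genes between the genotypes before induction, and of undifferentiated KO replicate 1 or 2, 8 or 7. For the genotypes after induction the low count of 14 was without differentiating WT replicate 2, and for the interaction the low counts were 11 without that library, 14 without undifferentiated WT replicate 1, and 16 and 13 without undifferentiated KO replicates 1 and 2. Where 1 library of a group was left, it was assumed to vary like the other groups. The calls that held under every alternative were 36 of 37 for induction in KO, 28 of 32 in WT, 12 of 31 for the genotypes after induction, 6 of 17 before it and 10 of 25 for the interaction. Median centring moved the median of all genes by -0.10 in WT induction, with 35 genes lower. Restricted to the 250 bases before the start, ERSE was in 8 genes, CARE in 5 and ERSE-II in 1.

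Replicate numbers did not pair the libraries: the deviations of same-numbered libraries correlated at -0.09 to 0.03 between groups. With the replicate number as a block, 29, 37, 16, 28 and 22 genes passed for induction in WT, induction in KO, the genotypes before and after induction, and the interaction. The RPKM values come without an estimate of their counting error. The precision rests on the spread between the 2 libraries of each group, pooled over the groups and moderated by the trend of all genes.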
